A study of Mus musculus with 2 samples.

Results

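Chemokine-high PCs were the 10% of passage 5 (PC5) cultured brain pericytes with the largest share of UMIs (unique molecular identifiers, each standing for 1 captured transcript) from the chemokine genes *Cxcl10*, *Ccl2*, *Ccl8* and *Ccl11*. The score of a cell was the sum of these UMIs divided by all UMIs of the cell, and cells were ranked after keeping those in which over 1000 genes were detected and mitochondrial UMIs made up less than 20%. This gave 995 of 9950 kept PC5 cells, out of 14699 kept cells in the series, and the other 8955 kept PC5 cells were the contrast. The score values chose the cells and are given as a description, without a test.

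The study cultured PCs from the brains of C57BL/6N wild type mice, 6 females aged 6 to 8 weeks per isolation, and profiled them with the 10x 3' v3.1 chemistry at passage 5 (PC5) and passage 20 (PC20). By the methods, digested brain tissue was plated on collagen and passaged to obtain PCs, with no other cell type added back. Endothelial growth medium was used first and pericyte medium later, and PC identity was checked by PDGFRB expression. The labels name no treatment. There was 1 library per passage. The labels carry the same protocol, with 6 mice, for both libraries and do not mention separate isolations, while the study's methods give each passage its own isolation. By the methods, passage and isolation cannot be told apart. The PC5 library held 10629 barcodes with 223978480 UMIs, and its kept cells had a median of 21700 UMIs. The PC20 library held 4884 barcodes with 191306354 UMIs, 4749 kept cells and a median of 33424. The libraries shared 20 cell barcodes, none of them among the 995 cells. With 1 library per passage no test of a difference was possible, and cells of 1 library are not replicates. The 95% intervals in square brackets are exact and cover counting error only.

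Chemokines are small secreted proteins that bind receptors on leukocytes and direct their migration. CCL2, CCL7 and CCL12 are monocyte chemoattractants acting mainly through CCR2, CCL8 is a related CC chemokine, CCL11 (eotaxin) acts on eosinophils through CCR3, and CXCL10 attracts activated T cells through CXCR3. Transcription of *Ccl2* and *Cxcl1* is classically driven by NF-kB, while *Cxcl10* is a classical interferon target. Brain PCs lie on the capillary wall and are known to release CCL2 under inflammatory stimuli.

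The genes of the score and their neighbours lie at 2 places in the genome (GRCm38). *Ccl2* (chr11:82035571-82037453), *Ccl7* (chr11:82045712-82047525), *Ccl11* (chr11:82057823-82062955), *Ccl12* (chr11:82101845-82103400) and *Ccl8* (chr11:82115185-82116799) lie on the plus strand within 81.2 kb of chromosome 11. *Cxcl10* lies on the minus strand of chromosome 5 (chr5:92346638-92348889). The last 500 bases of the transcripts of *Ccl2*, *Ccl7*, *Ccl8*, *Ccl11* and *Ccl12* shared 0 stretches of 31 bases. *Ifit3* and *Ifit3b* shared 21 (4.47% of the stretches of *Ifit3*), and reads from these cannot be told apart between the pair.

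Promoter sequences of 300 bases, 250 before to 50 after the start of the gene (RefSeq, GRCm38.p6), were read to show the letters that interferon-responsive and NF-kB factors are known to bind. The table held 2 of the 4 score genes, *Cxcl10* and *Ccl8*. The interferon-stimulated response element was searched as GAAANNGAAA and the kB element as GGGNNNTTCC or GGGNNNTCCC, on both strands, and matches of the kB forms can overlap. A match is a description of letters and not a bound site. Capitals mark matches in 3 promoters, those of *Cxcl10*, of *Rsad2* (an interferon-induced antiviral enzyme among the leading genes of the chemokine-high cells), and of the NF-kB target *Cxcl1*.

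Cxcl10, chr5:92348840-92349139, minus strand: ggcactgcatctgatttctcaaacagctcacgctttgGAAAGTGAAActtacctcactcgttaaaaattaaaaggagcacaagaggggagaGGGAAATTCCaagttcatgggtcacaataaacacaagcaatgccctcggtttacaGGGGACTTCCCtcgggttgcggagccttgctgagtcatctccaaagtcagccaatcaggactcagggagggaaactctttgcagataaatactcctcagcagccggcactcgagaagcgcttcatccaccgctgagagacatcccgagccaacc

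Rsad2, chr12:26456403-26456702, minus strand: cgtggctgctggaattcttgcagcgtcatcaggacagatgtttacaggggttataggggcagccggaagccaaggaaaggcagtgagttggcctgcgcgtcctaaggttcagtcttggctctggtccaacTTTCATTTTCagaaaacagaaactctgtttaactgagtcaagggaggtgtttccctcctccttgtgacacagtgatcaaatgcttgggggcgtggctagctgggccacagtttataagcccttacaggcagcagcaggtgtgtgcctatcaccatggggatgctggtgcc

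Cxcl1, chr5:90890995-90891294, plus strand: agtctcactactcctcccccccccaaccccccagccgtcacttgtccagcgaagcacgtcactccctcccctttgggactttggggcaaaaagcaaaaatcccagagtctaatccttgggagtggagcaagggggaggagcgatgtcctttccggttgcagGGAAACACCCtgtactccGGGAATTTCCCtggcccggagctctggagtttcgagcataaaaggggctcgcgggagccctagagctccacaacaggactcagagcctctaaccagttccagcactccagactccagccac

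Ccl8, chr11:82114935-82115234, plus strand, with no match of either motif: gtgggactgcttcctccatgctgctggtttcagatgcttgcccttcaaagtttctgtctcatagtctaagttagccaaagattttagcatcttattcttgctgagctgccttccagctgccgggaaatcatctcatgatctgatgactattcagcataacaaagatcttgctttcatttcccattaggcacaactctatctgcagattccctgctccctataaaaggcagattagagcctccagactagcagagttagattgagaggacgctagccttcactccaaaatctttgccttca

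The *Cxcl10* promoter held 1 interferon element, starting 213 bases before the gene start, and kB letters starting 159, 104 and 103 bases before it. Of the interferon-stimulated genes read in this way, *Rsad2* held 1 interferon element, *Ifit1* and *Ifit3* held 2 each, and *Cmpk2* had no match of either motif. The interferon letters stood in 3.44% of all 32851 promoters, in 46.8% of the 47 promoters matched to the list of interferon-stimulated genes and in 10.7% of 28 chemokine promoters. The kB letters stood in 10.4% of all promoters, in 35.7% of the chemokine promoters and in 42.9% of 35 promoters of the list of NF-kB subunits and targets. They also stood in 38.1% of MHC class I promoters, 22.7% of promoters of G2/M cell cycle genes and 17.0% of those of interferon-stimulated genes.

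Chemokine-high cells were a tail of a continuous range of scores. The lowest score among them was 8.7863 UMIs per 10000, and the highest among the other cells was 8.7855. Their median was 14.5 and their highest value 216, while the other cells had a median of 0.816. No UMI of the 4 genes was seen in 2804 PC5 cells, which is 28.2% [27.3, 29.1] of the library. The chemokine-high cells held 53.5% [53.2, 53.9] of the 4-gene UMIs (39477 of 73752) and 9.11% of all UMIs. Each of them had between 3 and 478 such UMIs, with a median of 31.

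**Figure D1:**
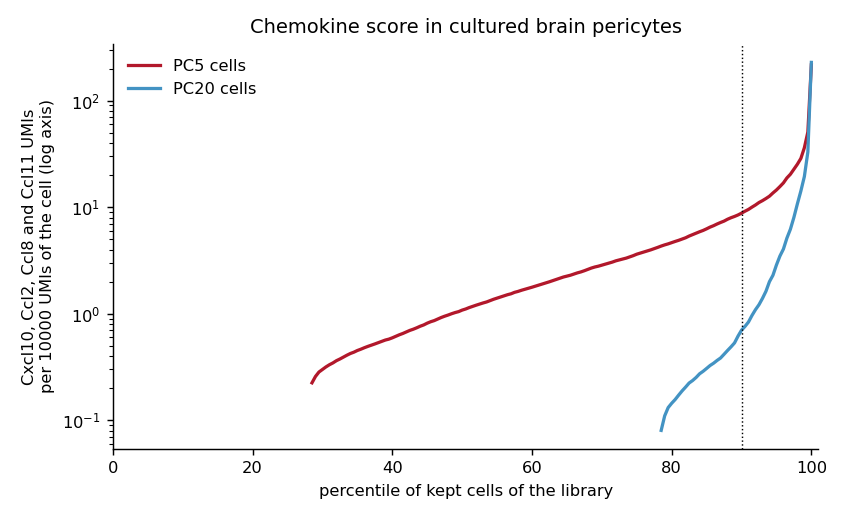
Score of each kept cell (UMIs of the 4 genes per 10000 UMIs, log axis) against its percentile in the PC5 and PC20 libraries, with cells at 0 not drawn and the dotted line at the 90th percentile. The PC5 curve crosses that line at 8.79 without a step, and the PC20 curve crosses it at 0.701.

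The label "chemokine-high" mostly described *Ccl2*. Of the 4-gene UMIs in these cells, 89.7% [89.4, 90.0] were from *Ccl2*, and *Ccl2* had the most UMIs of the 4 genes in 933 of 995 cells (93.8% [92.1, 95.2]). *Cxcl10* led in 22 cells, *Ccl8* in 19 and *Ccl11* in 15, and 6 were tied. Only 1 of the 4 genes was seen in 559 cells, 2 in 338, 3 in 90 and all 4 in 8.

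*Ccl2* was at 1743 CPM (counts per 1000000 UMIs, from UMIs summed over cells) in chemokine-high cells and 158 CPM in the others, a log2 ratio of 3.46 [3.44, 3.49]. Per cell, its level in chemokine-high cells ran from 0 to 215 UMIs per 10000 with a median of 13.1, against a median of 0.704 in the others. A *Ccl2* UMI was seen in 99.6% of the selected cells and 65.8% [64.8, 66.8] of the others. Free RNA in the droplets gives some cells a UMI without expression, and the cultures held no cell type known to lack these genes against which to set that share. In the 679 PC5 barcodes that did not pass the cell filter, *Ccl2* was at 122 CPM [101, 147]. Such barcodes can hold low-quality cells, so this value is not a measure of free RNA. Free RNA was not measured, and the 158 CPM of the other cells is not read as expression in each of them. In those barcodes *Ccl8* was at 35.7 CPM [24.6, 50.1], *Ccl11* at 6.49 [2.38, 14.1] and *Cxcl10* at 5.41 [1.76, 12.6]. A UMI of these genes is likewise not read as expression in each cell.

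The other score genes were at lower levels than *Ccl2*, and shares of cells with a UMI at such different levels are not compared between genes. *Ccl8* was at 85.5 CPM against 5.75 (log2 ratio 3.89 [3.79, 4.00]), with a UMI in 32.6% [29.7, 35.6] of chemokine-high cells and 7.95% of the others. *Ccl11* was at 37.8 CPM against 3.21 (3.56 [3.41, 3.71]), with a UMI in 13.0% [10.9, 15.2] and 3.66% of cells. *Cxcl10* was at 76.2 CPM against 2.19 (5.12 [4.96, 5.27]), with a UMI in 9.35% [7.61, 11.3] and 1.94% of cells. The level of *Cxcl10* rested on few cells, since 10 of the 995 cells held 48.9% of its UMIs and 1 cell held 145. The same share was 37.7% for *Ccl11*, 26.0% for *Ccl8* and 7.98% for *Ccl2*. Among the 129 chemokine-high cells with a *Ccl11* UMI, 57 (44.2%) also had a *Ccl8* UMI, and 37 of the 93 cells with a *Cxcl10* UMI did.

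These ratios are partly set by the selection, so each gene was also measured on UMIs not used for the choice, and by a choice that left it out. The first of these still uses the gene to choose the cells, so it removes shared counting error only. When the UMIs of every cell were randomly divided, with cells chosen on one portion and measured on the other, the log2 ratio was 3.32 for *Ccl2*, 3.71 for *Ccl8*, 3.54 for *Ccl11* and 4.99 for *Cxcl10*, and 865 cells were chosen by both portions. When cells were chosen by the other 3 genes, it was 1.65 [1.62, 1.67] for *Ccl2*, 3.27 [3.16, 3.37] for *Ccl8*, 2.39 [2.23, 2.55] for *Ccl11* and 3.32 [3.19, 3.45] for *Cxcl10*. Without *Ccl2* in the score only 365 of the 995 cells were chosen again, against 956 to 973 cells without any of the other genes. Each of the 4 genes was higher in cells chosen by the other 3, by less than under the full score.

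Across the transcriptome, 9271 genes were detected by a UMI in 10% or more of the cells of either set. Of these, 294 (3.17%) had a log2 ratio of 0.5 or more in chemokine-high cells, and 270 (2.91%) a ratio of -0.5 or less. At a log2 ratio of 1 or more there were 60 genes (0.647%) and at -1 or less 13 (0.14%). The median of all expressed genes was -0.05. These shares are the background for the gene lists below.

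Among other chemokines, *Ccl7*, the neighbour of *Ccl2*, had the largest ratio of all expressed genes outside the score. It was at 660 CPM in chemokine-high cells and 109 CPM in the others (2.59 [2.56, 2.62]), or at a ratio of 1.99 with *Ccl2* taken out of the score. The per-cell median of *Ccl7* was 4.43 UMIs per 10000 in the first set and 0.383 in the second, with highest values of 84.5 and 28.6, so the ranges overlapped. The neutrophil chemokine *Cxcl1* was at 21.0 CPM against 7.13 (1.56 [1.40, 1.71]). Of the 28 other CC and CXC chemokines in the files, 5 passed the 10% filter. *Ccl7* and *Cxcl1* were at 0.5 or more, and the median was 0.24. *Cxcl1* passed the filter only through the chemokine-high cells, where it was higher. *Cxcl12*, a homeostatic chemokine of stromal cells, went the other way at 24.4 CPM against 34.3 (-0.49 [-0.63, -0.36]).

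Rarer chemokines did not pass the filter. *Ccl12*, also in the chromosome 11 cluster, was at 16.9 CPM against 1.17 (3.86 [3.61, 4.10]), with a UMI in 9.85% [8.07, 11.9] of chemokine-high cells. *Ccl5*, a T cell and monocyte chemoattractant, was at 22.7 CPM against 2.94 (2.95 [2.77, 3.13]), but its 461 UMIs lay in 23 cells. Chemokine receptors were nearly silent in both sets, since 1 of 17 passed the filter. This was the scavenging receptor *Ackr3*, at 7.92 CPM against 5.66.

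Interferon-stimulated genes, the longest of the lists, held the most higher genes by count, though not by share (cytokines had 5 of 8). Of 48 expressed members, 28 had a log2 ratio of 0.5 or more, none was at -0.5 or less, and all 48 were above 0. Their median was 0.53, and their summed level was 5854 CPM in chemokine-high cells against 3866 CPM in the others. *Rsad2* was at 130 CPM against 32.9 (1.98 [1.92, 2.05]). *Ifit2*, whose product binds viral RNA complexes, was at 33.5 CPM against 9.32 (1.85). *Cmpk2*, a mitochondrial nucleotide kinase next to *Rsad2*, was at 53 CPM against 18.6 (1.51). Without the 93 chemokine-high cells that had a *Cxcl10* UMI, the log2 ratios of *Rsad2*, *Ifit2* and *Cmpk2* were 0.78, 0.54 and 0.57. *Ifit3* was at 144 CPM against 59.2 (1.29) and *Ifit3b* at 69.1 against 24.7 (1.48), with the shared sequence given above. *Isg15*, a ubiquitin-like modifier, was at 225 CPM against 110 (1.03), and *Ifit1* at 460 against 231 (1.00). The difference was smaller for the transcription factor gene *Irf7*, at 56.4 CPM against 31.0 (0.86). The most abundant member, *Ifitm3*, was at 1503 CPM against 1138 (0.40).

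Antigen presentation by MHC class I, a pathway that interferon is known to induce, was also higher in the selected cells. Of 18 expressed genes, 7 were at 0.5 or more and none at -0.5 or less, all 18 were above 0, and the median was 0.46. The count was 3 of 17 without the cells that had a *Cxcl10* UMI (background 3.01%) and 3 of 18 without those that had a *Ccl8* UMI (background 2.4%). In the top cells of PC20, chosen by the same rule, it was 2 of 21 (background 2.69%), and of 18 genes expressed in both passages 1 was at 0.5 or more in both. H2-K1, a classical class I heavy chain, was at 155 CPM against 101 (0.62 [0.56, 0.67]), and H2-D1 at 90.8 against 62.0 (0.55). The immunoproteasome subunit *Psmb9* was at 9.30 CPM against 4.79 (0.96), and the class I light chain *B2m* at 552 against 407 (0.44).

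NF-kB genes gave a mixed picture. Of 27 expressed subunits and targets, 5 were at 0.5 or more and 1 at -0.5 or less, with a median of 0.32. Without the cells that had a *Cxcl10* UMI, 3 were at 0.5 or more (background 3.01%). The alarmin *Il33* was at 101 CPM against 28.7 (1.81 [1.74, 1.88]; 0.89 without the cells that had a *Ccl8* or *Ccl11* UMI) and *Lif*, a cytokine of the IL-6 family, at 51.0 against 24.1 (1.08). *Il6* was at 9.05 CPM against 5.96 (0.60), and the feedback inhibitor *Nfkbia* at 28.5 against 21.3 (0.42). The subunits themselves were at close to equal levels, *Rela* at 27.1 CPM in both sets and *Nfkb1* at 35.2 against 34.2. *Vcam1*, a leukocyte adhesion molecule, was lower in chemokine-high cells at 50.9 CPM against 81.5 (-0.68 [-0.77, -0.59]).

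Of 8 expressed cytokines, 5 were at 0.5 or more and none at -0.5 or less, among them *Il11* at 36.0 CPM against 12.8 (1.49). *Csf1*, the macrophage growth factor, was at 79.2 CPM against 97.6 (-0.30). Of 23 expressed cytokine and pattern receptors, 3 were at 0.5 or more, with *Tlr3*, a sensor of double-stranded RNA, at 29.2 CPM against 16.0 (0.87 [0.74, 0.99]). The interferon receptor *Ifnar1* was at 48.3 CPM against 43.7 (0.14). Of 6 expressed complement and acute phase genes, 2 were at 0.5 or more, with a median of 0.43. Without the cells that had a *Ccl8* UMI, 1 was at 0.5 or more (background 2.4%) and 1 at -0.5 or less (background 2.05%), with a median of 0.17.

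Genes outside immune lists were also among the 15 highest ratios at 20 CPM or more. *Trf*, which encodes the iron carrier transferrin, was at 147 CPM against 24.8 (2.56 [2.50, 2.63]). Its highest single value, 242 UMIs per 10000, lay in a cell outside the selected set, and its median was 0 in both sets. The small proteoglycan gene *Dcn* was at 138 CPM against 42.5 (1.70), and *Apod*, a lipid carrier not among the 15, at 912 against 368 (1.31). The others of the 15 outside immune lists were *Sparcl1* (27.3 CPM against 9.71), the guidance cue *Sema3c* (76.2 against 27.7), *Serinc5* (23.9 against 9.11), the protease inhibitor *Serpine2* (251 against 96.7) and *Igfbp4*, an IGF-binding protein (411 against 160). Without the chemokine-high cells that had a *Ccl8* or *Ccl11* UMI, the log2 ratio was 1.70 for *Trf*, 0.84 for *Dcn*, 0.54 for *Sparcl1* (1.49 with them) and 0.66 for *Serinc5* (1.39 with them). The ratio of *Igfbp4* was 1.37, but -0.13 when *Ccl2* was taken out of the score. Those of *Il11* and *Sema3c* were 0.28 and 0.37 without *Ccl2*, so all 3 were under 0.5 when the choice rested on the other chemokines.

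**Figure D2:**
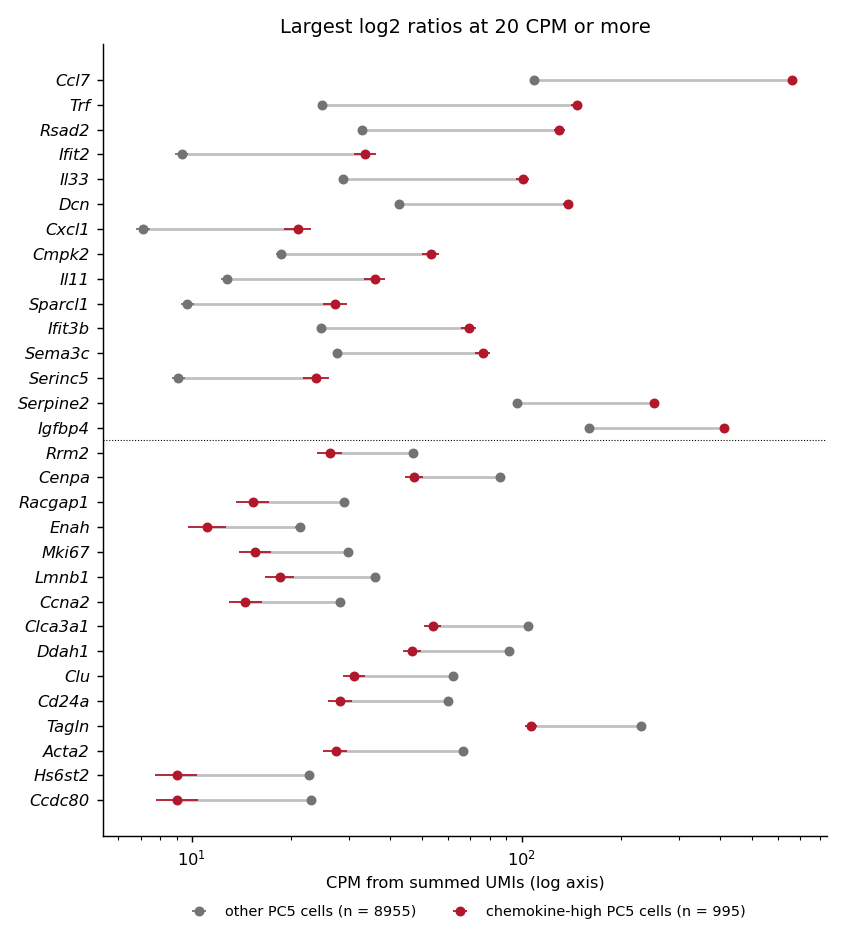
CPM (log axis) of the 15 genes with the highest and the 15 with the lowest log2 ratio outside the score, among expressed genes with 20 CPM or more on the higher side and without pseudogenes and unnamed models, in chemokine-high (red) and other (grey) PC5 cells, with 95% Poisson intervals. Ccl7 lies at 660 against 109 CPM at the top, and Ccdc80 at 9.05 against 23 CPM at the bottom.

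Contractile and cell cycle genes stood at the lower end. *Acta2*, smooth muscle actin, was at 27.3 CPM in chemokine-high cells and 66.4 in the others (-1.28 [-1.41, -1.16]), and the actin-binding gene *Tagln* at 107 against 231 (-1.11). *Myl9*, a myosin light chain, was at 12.9 CPM against 21.2 (-0.72). Of 6 expressed smooth muscle contractile genes, 3 were at -0.5 or less and 1, *Smtn*, was at 0.56. *Ccdc80*, a secreted matrix-associated protein, was at 9.05 CPM against 23 (-1.35), the heparan sulfate sulfotransferase *Hs6st2* at 9.0 against 22.7 (-1.34) and the surface glycoprotein gene *Cd24a* at 28.2 against 59.8 (-1.09). Other genes of this end were the secreted chaperone gene *Clu* (31.0 against 61.8), *Ddah1*, which degrades inhibitors of nitric oxide synthase (46.6 against 91.3), *Clca3a1* (53.7 against 104) and the actin regulator *Enah*. With *Ccl2* left out of the score, *Acta2* was at -0.37, *Tagln* at -0.24, *Ccdc80* at -0.46, *Hs6st2* at -0.55, *Clca3a1* at -0.26 and *Clu* at -0.18.

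Genes of dividing cells were at lower levels in chemokine-high cells. All 24 genes of the G2/M list were below 0, 18 of them at -0.5 or less, with a median of -0.62, and their summed level was 655 CPM against 993. The proliferation marker *Mki67* was at 15.6 CPM against 29.9 (-0.94 [-1.11, -0.77]), *Ccna2*, a cyclin, at 14.6 against 28.2 (-0.96), and the centromere histone *Cenpa* at 47.3 against 86.1 (-0.86). *Lmnb1* (18.5 CPM against 35.9), the cytokinesis gene *Racgap1* and *Rrm2* (26.2 against 46.9), which makes deoxynucleotides, were also among the 15 lowest at 20 CPM or more. Of 19 expressed G1/S and S phase genes, 5 were at -0.5 or less and none at 0.5 or more, with a median of -0.37. Without the cells that had a *Ccl8* UMI, 9 of 24 G2/M genes and 1 of 19 G1/S and S phase genes were at -0.5 or less (background 2.05%). A UMI of *Mki67* or *Top2a* was seen in 31.9% [29.0, 34.9] of chemokine-high cells and 46.4% [45.4, 47.5] of the others. The selected cells were shallower, with a median of 19585 UMIs against 21923. After thinning each cell to 9500 UMIs, which left out 105 and 825 cells, the shares were 24.5% (218 of 890) and 35.1% (2851 of 8130). Genes of cell cycle arrest were at close levels, with *Cdkn1a* at 407 CPM against 393 and *Cdkn2a* at 613 against 550. Of 16 expressed CDK inhibitors and p53 targets, 2 were at -0.5 or less and none at 0.5 or more.

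Stress and quality measures were close between the sets. None of 20 expressed immediate-early and stress genes passed 0.5 in either direction, and the median mitochondrial share was 2.39% in chemokine-high cells and 2.62% in the others. The median number of genes was 4143 against 4485. Doublets were neither called nor removed.

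Matrix genes and matrix proteases were counted as separate lists. Of 26 expressed collagens and matrix genes, 1 was at 0.5 or more (*Fn1*, fibronectin, 725 CPM against 499), near the background of 3.17%. There were 4 at -0.5 or less (background 2.91%), including *Col6a3* (6.40 against 14.4) and the crosslinking enzyme gene *Lox* (181 against 278). Of 16 proteases and inhibitors, 7 were at 0.5 or more and none at -0.5 or less, with a median of 0.40. Without the cells that had a *Ccl8* UMI, 3 of 16 were at 0.5 or more (background 2.4%), with a median of 0.23. *Mmp3*, a secreted protease, was at 58.1 CPM against 29.9 (0.96), but at 33.1 CPM in the chemokine-high cells without a *Ccl8* UMI. The inhibitor *Timp3* was at 1912 CPM against 1093 (0.81) and *Adamts1* at 221 against 134 (0.72).

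Marker genes of cell types were checked for the identity of these cells. Canonical PC markers were low in both sets. *Pdgfrb* was at 39.5 CPM against 45.1, *Cspg4* at 3.30 against 5.77, and *Rgs5* at 5.46 against 1.45 with 111 and 294 UMIs. *Abcc9* had 0 UMIs against 1 and *Kcnj8* had 3 against 10. Of 5 expressed PC markers none was at 0.5 or more and 1 at -0.5 or less, with a median of -0.19. That median was 0.31 with *Ccl2* left out of the score and -0.38 without the cells that had a *Ccl8* or *Ccl11* UMI. *Rgs5* did not pass the filter, with a UMI in 55 chemokine-high cells and 227 of the others. Among 8 expressed fibroblast markers, *Dcn* and *Apod* were at 0.5 or more, and *Pdgfra* was at 107 CPM against 86.8 (0.30). Endothelial *Cdh5* was at 259 CPM against 159 (0.70), while *Kdr* was at 8.61 against 13.2, *Pecam1* had 14 UMIs against 107 and *Cldn5* had 0 against 14.

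Immune cell markers were also counted, and their part in the chemokine levels was not tested. Of 15 microglia and macrophage markers 1 passed the filter, *Tmem119*, at 9.10 CPM in chemokine-high cells and 11.9 in the others. The 15 summed to 14.2 CPM against 18.0. *Ptprc* (CD45) had 0 UMIs in chemokine-high cells and 1 in the others, and *Adgre1*, *C1qb*, *Tyrobp* and *Cd48* had 0 in both. The 12 markers of T, B, mast cells and neutrophils summed to 6.30 CPM against 1.17, with *S100a8* the most abundant. Its 123 UMIs lay in 46 chemokine-high cells, with at most 16 in any of them, and 211 UMIs lay in 112 of the other cells, with 62 in 1 of those.

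Some genes were graded along the score and others differed only at its upper end. In the 10 equal bins of PC5 cells from lowest to highest score, *Ccl7* was at 36.5, 39.2, 33.7, 47.8, 79.8, 113, 142, 191, 295 and 660 CPM. *Tagln* went from 332 CPM in the first bin to 107 in the last, and *Acta2* from 103 to 27.3. *Igfbp4* went from 81.0 to 411 CPM and *Il33* from 9.23 to 101. The interferon-stimulated genes were flat over most bins, with summed levels of 3784, 3749, 3554, 3672, 3737 and 3754 CPM in bins 1 to 6, and reached 4529 in bin 9 and 5854 in bin 10. The MHC class I list likewise lay between 1926 and 1957 CPM in bins 1 to 6 and was at 2368 in bin 10. *Trf* was steeper at the end, with 55.6 CPM in bin 9 and 147 in bin 10. *Rsad2* was at 21.3 CPM in the first bin, 58.5 in bin 9 and 130 in the last. The share of cells with a *Mki67* or *Top2a* UMI was not graded in this way. It was 37.0% in bin 1, 52.5% in bin 6 and 31.9% in bin 10. Bins 1 and 2 and 814 cells of bin 3 had a score of 0, so their order carries no score difference, and their median depth was lower (18597 UMIs in bin 1 against 23847 in bin 6).

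**Figure D3:**
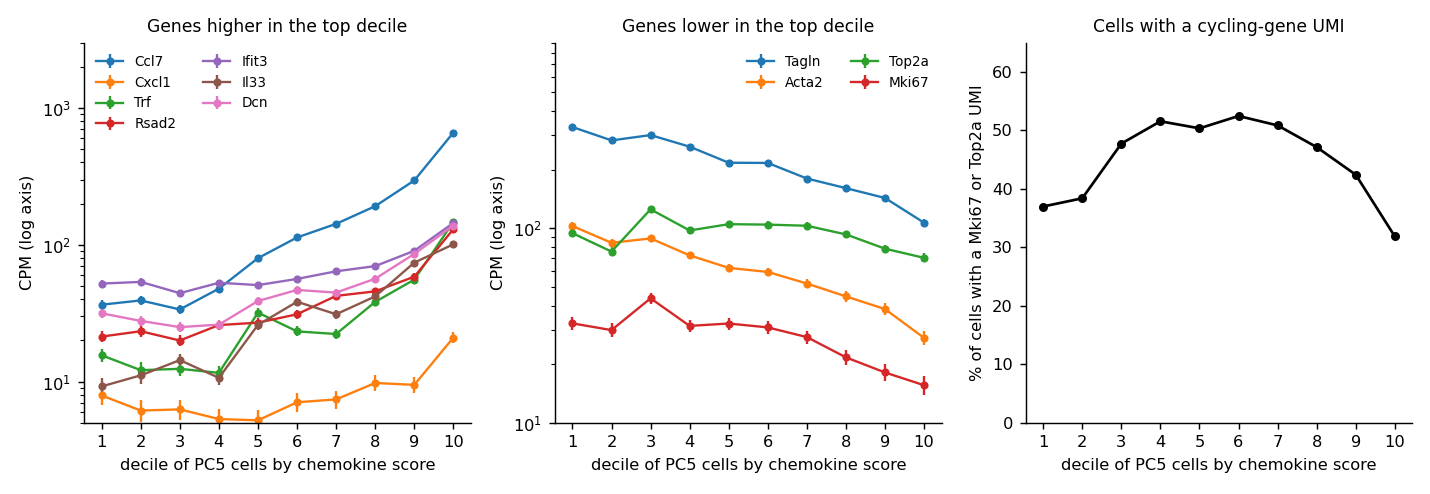
Levels in 10 equal bins (deciles) of PC5 cells ordered by score, with CPM on log axes and 95% Poisson intervals in the first panels, and the percentage of cells with a Mki67 or Top2a UMI in the last. Ccl7 reaches 660 CPM and Tagln 107 CPM in the highest bin, and the share of cells with a cycling-gene UMI is 52.5% in bin 6 and 31.9% in bin 10.

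Chemokine-high cells differed among themselves according to which rarer chemokine they carried. They were split by the presence of a UMI of *Cxcl10*, *Ccl8* or *Ccl11*, a choice made after seeing the data. The 93 cells with a *Cxcl10* UMI had higher levels of interferon-stimulated genes than the 902 without. Of 52 expressed interferon-stimulated genes, 44 were at 0.5 or more (7.34% of all expressed genes in this comparison). Of the 48 seen in at least 10% of cells on both sides, 40 were at 0.5 or more (5.14% of all such genes), with a median of 1.12. In the comparison of all chemokine-high cells with the others, each of the 48 expressed members had passed on both sides. *Rsad2* was at 764 CPM against 56.6 (3.76 [3.64, 3.87]), *Cmpk2* at 272 against 27.7 (3.30) and *Ifit1* at 1577 against 330 (2.26). *Mx1*, an antiviral GTPase that passed the filter only through the cells with *Cxcl10* (38.7% and 1.88% of cells), was at 57.8 CPM against 1.26, and the checkpoint ligand *Cd274* at 58.8 against 6.75 (3.12). *Irf7* was at 126 against 48.3 (1.38). Of 17 MHC class I genes seen on both sides, 10 were at 0.5 or more. *Ccl2* was at 1647 CPM against 1754, but it is part of the score that chose the cells, so its level in this split is partly set by the choice. *Trf* was at 71.1 CPM against 156 and *Igfbp4* at 187 against 437. The median depth was 21919 UMIs against 19359, and deeper cells are more likely to show a *Cxcl10* UMI. The shares with a cycling-gene UMI were 35.5% [25.8, 46.1] and 31.5% [28.5, 34.6].

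The interferon difference was smaller without these 93 cells. Against the other PC5 cells, the 902 cells without a *Cxcl10* UMI had 15 of 48 expressed interferon-stimulated genes at 0.5 or more (background 3.01%) and a median of 0.37. All 48 were still above 0. The G2/M list had 16 of 24 genes at -0.5 or less (background 3.13%) and a median of -0.61.

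Cells with a *Ccl8* UMI (324) differed from those without (671) in other genes. *Ccl12* was at 48.3 CPM against 3.25 (3.90 [3.44, 4.38]) and *Ccl11* at 79.5 against 19.7 (2.01). *Ccl7*, which the score did not use, was at 991 CPM against 517 (0.94). The levels of *Ccl2* and *Ccl11* in this split are partly set by the score, and *Ccl12* passed the 10% filter only through the cells with *Ccl8*, at 23.5% and 3.28% of cells. *Mmp3* was at 116 CPM against 33.1 (1.81), *Selenop*, the selenium carrier, at 925 against 312 (1.57), *Angpt2*, a vascular growth factor, at 63.9 against 18.4 (1.79), *Dcn* at 245 against 91.7 (1.42) and *Trf* at 257 against 99.1 (1.37). *Igfbp4* was at 226 CPM against 492 (-1.12). Of 50 expressed interferon-stimulated genes, 10 were at 0.5 or more (background 3.68%), none was at -0.5 or less and 44 were above 0, with a median of 0.24 beside -0.11 for all expressed genes. Of the 48 seen in 10% of cells on both sides, 8 were at 0.5 or more (2.90% of all such genes). *Isg15* was at 309 CPM against 189 (0.71 [0.62, 0.79]) and *Ifit3* at 198 against 121 (0.71 [0.60, 0.82]), while *Rsad2* was at 0.07. Cell cycle genes were lower, with 20 of 24 G2/M genes (background 8.65%) and 15 of 18 G1/S and S phase genes at -0.5 or less. Among genes seen in 10% of cells on both sides these counts were 12 of 16 and 11 of 14 (6.17% of all such genes). A cycling-gene UMI was seen in 20.7% [16.4, 25.5] of cells with *Ccl8* and 37.3% [33.6, 41.0] of those without, at a median depth of 18292 and 20312 UMIs.

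Cells with a *Ccl11* UMI (129) were compared with the 866 without. *Il33* was at 389 CPM against 61.8 (2.65), *Mmp3* at 200 against 38.9 (2.36), the LIF receptor *Lifr* at 54.9 against 9.39 (2.55), *Dcn* at 345 against 110 (1.65) and *Serpine2* at 501 against 218 (1.20). *Acta2* was at -1.05 and *Tagln* at -0.72. Of 50 interferon-stimulated genes 6 were at 0.5 or more (background 8%), and of 23 G2/M genes 21 were at -0.5 or less (background 7.89%). Among genes seen on both sides these were 4 of 48 (6.29% of all such genes) and 11 of 13 (5.53%). The shares with a cycling-gene UMI were 22.5% [15.6, 30.7] and 33.3% [30.1, 36.5]. The lower G2/M level of chemokine-high cells was smaller, at a median of -0.35, in those with neither a *Ccl8* nor a *Ccl11* UMI.

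**Figure D4:**
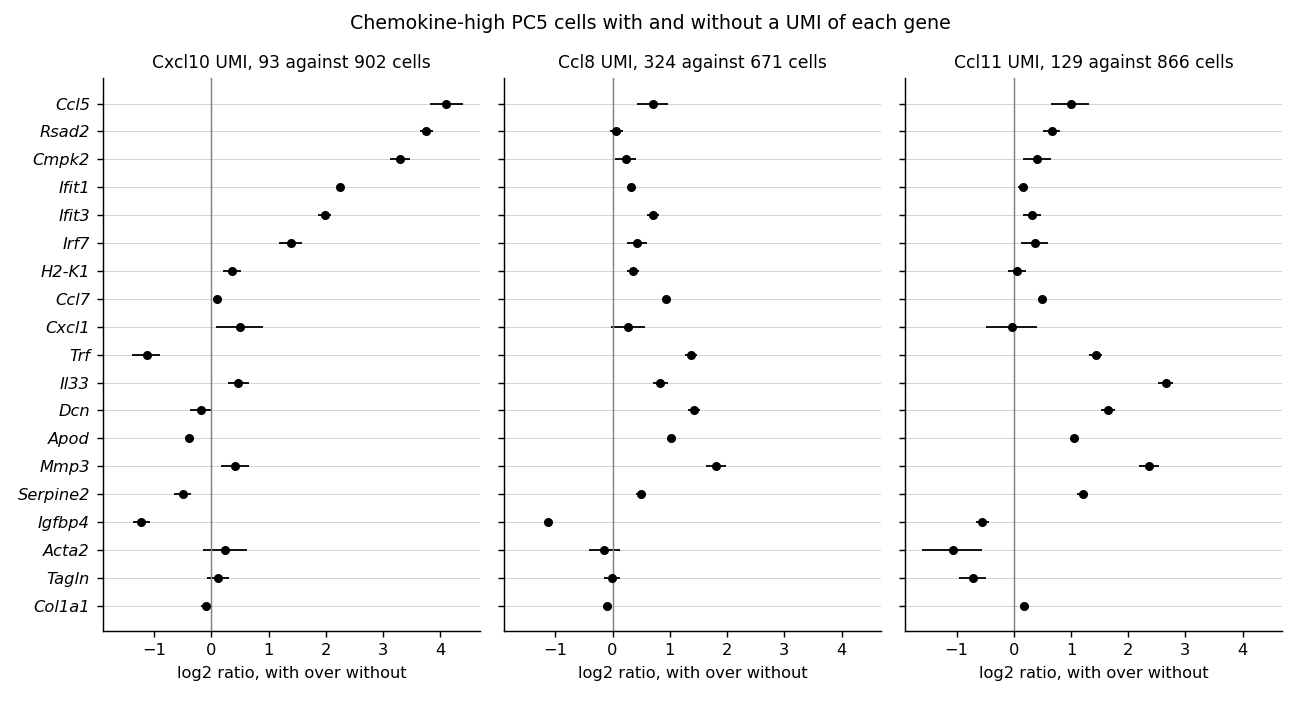
Log2 ratio, with 95% interval, of 19 genes in chemokine-high PC5 cells with over without a UMI of Cxcl10 (93 against 902 cells), Ccl8 (324 against 671) or Ccl11 (129 against 866). Rsad2 lies at 3.76 for Cxcl10 and 0.07 for Ccl8, while Trf lies at -1.13 for Cxcl10 and 1.37 for Ccl8.

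The same rule applied to PC20 selected cells of another composition. *Ccl2* was at 302 CPM in the whole PC5 library and 8.58 in PC20, *Ccl7* at 160 and 1.94, and *Cxcl10* at 8.94 and 77.7. *Ccl8* and *Ccl11* had 1 and 2 UMIs in PC20, and *Ccl12* had 0, with an exact 95% upper limit of 0.0193 CPM. The score was 0 in 78.3% [77.1, 79.4] of PC20 cells, and the 474 top cells had scores from 0.706 with a median of 2.90. They held 94.7% of the 4-gene UMIs of their library, mostly from *Cxcl10*, at 668 CPM against 3.93 in the other 4275 cells. *Ccl2* was at 67.8 CPM against 1.18 (5.85 [5.63, 6.07]). Both values were used by the rule and are given as a description.

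Interferon-stimulated genes were higher in the top cells of both passages. In PC20, 33 of 51 were at 0.5 or more (background 2.69%), with a median of 0.67, *Rsad2* at 659 CPM against 56.1 (3.55) and *Ifit1* at 495 against 51.3 (3.27). The filter also let in genes that passed only through the top cells, such as *Gbp5*, seen in 99 of 474 top cells and 104 of 4275 others. A count limited to genes seen in 10% of cells on both sides was not made for PC20, so these counts are a description. *Ccl5* was at 342 CPM against 41.1 (3.06) and *Irf1*, an interferon-response factor, at 58.7 against 8.13 (2.85). Of 48 interferon-stimulated genes expressed in both passages, 20 were at 0.5 or more in both, which is 71.4% of the 28 in PC5 and 66.7% of the 30 in PC20. Of all 8724 genes expressed in both, 52 (0.596%) were at 0.5 or more in both, or 26.9% of 193 in PC5 and 28.0% of 186 in PC20. The G2/M list did not go the same way. None of its 24 genes was at -0.5 or less (background 3.32%) or at 0.5 or more (background 2.69%) in PC20, and its median was 0.21. A cycling-gene UMI was seen in 86.7% [83.3, 89.6] of top PC20 cells against 70.6% [69.2, 71.9] of the others. These were 75.2% and 55.1% after thinning. *Trf*, *Il33* and *Dcn* had 19, 8 and 2 UMIs in top PC20 cells, with log2 ratios over the other PC20 cells of -0.55 [-1.31, 0.13], 0.39 [-0.90, 1.48] and -0.91 [-4.02, 1.07].

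**Figure D5:**
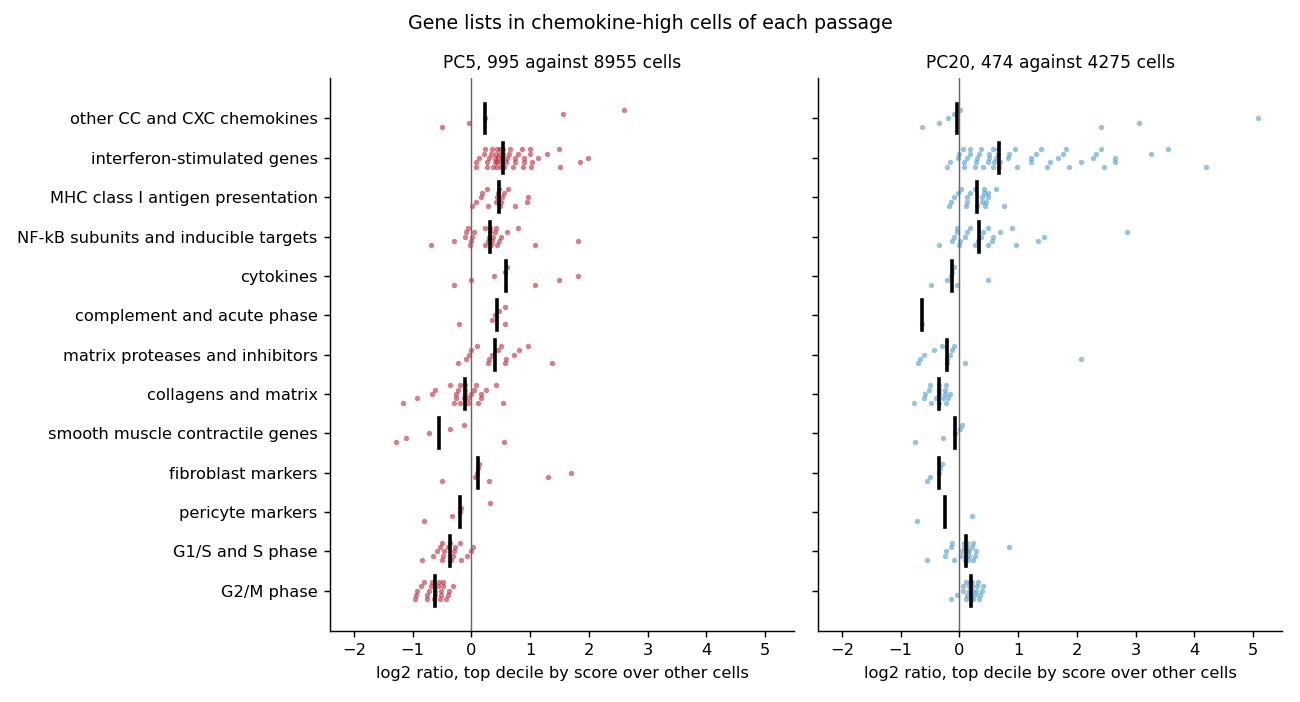
Log2 ratio of each expressed gene of 13 lists, top decile by score over the other cells, in PC5 (left) and PC20 (right), with black bars at the medians. The interferon list has a median of 0.53 in PC5 and 0.67 in PC20, and the G2/M list -0.62 and 0.21.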

How the data were processed

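PCs of passage 5 and passage 20 were profiled by droplet scRNA-seq, 1 library each. The deposited matrices hold raw UMI counts per gene and barcode. The authors made these counts with Cell Ranger (5.0 per the labels, 5.0.1 per the file headers) on mm10, without normalization or pooling. The cell filter of the paper's methods was applied here, and barcodes below it (679 in PC5, 135 in PC20) were left out. All 31053 listed genes were used, and 0 columns were left unused.

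UMIs were summed over the cells of a set and scaled to 1000000 (CPM), which gives deeper cells more weight. The log2 ratio used no pseudocount. Exact Poisson, conditional binomial and Clopper-Pearson intervals at 95% cover counting error, and no test was made because each passage had 1 library. A floor of 3 UMIs was used for genes at 0. Genes with a UMI in at least 10% of either set were called expressed. The genes named were the 4 score genes, members of 21 lists, and the 15 genes per direction with the largest ratio at 20 CPM or more and seen in 10% of cells on the higher side, without pseudogenes and unnamed models. For the splits by *Cxcl10*, *Ccl8* or *Ccl11* the same ordering was used. The cells, lists and splits were chosen with earlier results of these data known. The calculation was tested on simulated data. Python 3.11.15, numpy 2.4.6, scipy 1.17.1, pandas 2.3.3 and matplotlib 3.10.9 were used. The alternatives were 19 planned and 3 added after seeing the data.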

Additional observations from a re-analysis of the deposited data

Results flagged for a closer look

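The top cells by score differed between passages in their cell cycle genes. The G2/M list had a median log2 ratio of -0.62 in PC5 and 0.21 in PC20, with all 24 genes below 0 in PC5 and 22 of 24 above 0 in PC20. None of the 24 was past 0.5 in either direction in PC20. The cytokine list had a median of 0.59 in PC5 and -0.13 in PC20, and *Serpine2* had a ratio of 1.38 in PC5 and -0.61 in PC20. Of the 7 cytokines expressed in PC20 none was past 0.5 in either direction, and the median of all expressed genes there was -0.05. The difference between passages was not tested, since each passage had 1 library. The top cells also differed in their leading chemokine, *Ccl2* in PC5 and *Cxcl10* in PC20, and the part of this in the contrasts was not tested.

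Barcodes left out by the cell filter also held chemokine UMIs. In PC5 they had 170 CPM [144, 199] of the 4 genes, from 157 UMIs in 679 barcodes, against 331 CPM in the kept cells. In PC20 they had 48.9 CPM [22.4, 92.8], from 9 UMIs in 135 barcodes, against 86.3 CPM. These barcodes were not analysed further.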

How the results depend on the processing

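With 1 library per passage the values describe these libraries only, and no replicate could be left out. No paired analysis was possible because each group had 1 library and no test was made. Of 479 values of the 30 leading genes over 16 alternatives, 478 kept their sign and 470 stayed past 0.5 in size. These genes were picked for their ratios in the same cells, and many alternatives chose mostly the same cells. A kept sign was thus largely set beforehand. Over these genes and the score genes, 356 values lay within the counting interval of the main value, 183 lay outside it and 1 was reversed. The exception in sign was *Igfbp4*, at -0.13 with *Ccl2* taken out of the score. All values under 0.5 in size came from that alternative, among them *Rrm2* at -0.49 (-0.84 under the full score).

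The 294 higher genes became 60 at a log2 threshold of 1, 33 with a pseudocount of 1 on UMIs scaled to 10000, and 192 without the cells with a *Ccl8* or *Ccl11* UMI. The 270 lower genes became 539 with the top 5% of cells, 144 with a UMI required in 20% of cells, 13 at a threshold of -1 and 1 with the pseudocount, which compresses low genes. The log2 ratio of *Ccl2* (3.46) was 3.65 with the top 5%, 3.56 after thinning, 3.32 on UMIs not used for the choice, 3.43 with cells chosen within bins of depth, 1.65 with *Ccl2* out of the score, 3.57 without cells with a *Mki67* or *Top2a* UMI, 3.49 without the 5% deepest cells, 3.54 as a mean over cells and 3.39 without cells with a *Ccl8* or *Ccl11* UMI. The interferon median of 0.53 was 0.41 with the top 20% and 0.37 without cells with a *Cxcl10* UMI. The G2/M median of -0.62 was -0.78 after thinning, -0.46 with cells chosen within bins of depth, -0.50 without cells with a *Mki67* or *Top2a* UMI and -0.35 without cells with a *Ccl8* or *Ccl11* UMI. For these the cause was not tested. The alternatives without *Cxcl10*, *Ccl8* or *Ccl11* cells, and a filter of 10% of cells in both sets, were chosen after seeing the data. Under that filter 245 of 8786 genes (2.79%) were higher and 170 (1.93%) lower. It left 15 of 21 G2/M genes at -0.5 or less and 5 of 16 MHC class I genes at 0.5 or more.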

Other observations

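A few chemokine-high PC5 cells carried transcripts of *Ifnb1*, the gene of interferon beta. They were looked for after the interferon values had been seen. *Ifnb1* had 20 UMIs in 4 chemokine-high cells and 1 UMI in 1 of the 8955 other cells. All 4 also had UMIs of *Cxcl10*, which is part of the score and was seen in 93 of the 995 cells, and of *Ccl5*, seen in 23. Their median level of interferon-stimulated genes was 263 UMIs per 10000, against 115 in the 93 chemokine-high cells with a *Cxcl10* UMI, 52.5 in all chemokine-high cells and 37.4 in the others. In PC20, *Ifnb1* had 22 UMIs in 7 of the 474 top cells and 0 in the others, and all 7 had UMIs of *Cxcl10* and *Ccl5*, which were seen in 441 and 268 of the 474. Among single cytokine genes looked up in PC5, *Tnf* had 1 UMI in chemokine-high cells and 0 in the others, *Il1b* had 0 and 2, and *Ifng* and *Ifna4* had 0 in both.

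*Csf2*, a myeloid growth factor gene, had 15 UMIs in chemokine-high cells, all in 1 cell. Ranked by variance over mean after thinning, among 11562 PC5 genes, *Trf* stood at 9, *Cxcl10* at 13, *Ccl2* at 15, *Apod* at 24, *Il33* at 32, *Ccl7* at 33, *Ccl11* at 34 and *Ccl8* at 41.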
